A study of Rattus norvegicus with 45 samples.

Results

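The report covers 7 rat genes of the slow-twitch (type I) muscle fibre: Myl2, Myl3, Tnnt1, Tnni1, Tnnc1, Tpm3 and Myoz2. All probe sets whose platform annotation gives 1 of these symbols were taken. That gave 20 probe sets of 31042 on the array, and 7 genes of 14217 with a symbol. Tpm3 has 12 of these probe sets, Myl2 has 2, Tnni1 has 2 and each other gene has 1. Of the 20 probe sets, 19 passed the filter on low values and were tested. The exception was the Tpm3 probe set 1370450_at, which read 5.5 to 104.7 over the gastrocnemius arrays. Unless another probe set is named, each gene is shown by the tested probe set whose mean over all arrays was highest.

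The arrays measured RNA abundance in soleus and gastrocnemius muscle of female SD rats dosed once daily for 14 days with cerivastatin, a statin that lowers cholesterol, or with vehicle (methylcellulose). Soleus was sampled at 1.0 mg/kg/day with exercise (4 rats), as exercised vehicle (4), at 1.0 mg/kg/day without exercise (3) and as unexercised vehicle (4). Gastrocnemius was sampled with exercise as vehicle (4 rats) and at 0.1 (4), 0.5 (3) and 1.0 mg/kg/day (4), and without exercise as vehicle (4) and at 0.1 (4), 0.5 (4) and 1.0 mg/kg/day (3). Exercise was treadmill running for 20 min a day at 20 m/min on 5 days a week. The stated aims were the effect of the drug, the effect of combining it with exercise, and the basis of fibre-type sensitivity to statins. The arrays of a group are described as biological replicates, and the labels do not say whether a soleus and a gastrocnemius sample came from the same animal. The labels do not say which part of the gastrocnemius was taken. About 4 µg of RNA went into gastrocnemius targets and 3 µg into soleus targets, so RNA input and muscle cannot be told apart in comparisons of the muscles.

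A sarcomere thin filament carries tropomyosin and the troponin complex, which together switch contraction on when calcium rises, and each myosin head carries an essential and a regulatory light chain. Slow and fast fibres build these parts from different genes. In slow fibres the regulatory light chain is Myl2 and the essential light chain is Myl3. Tnnt1 binds tropomyosin, Tnni1 inhibits the filament at rest, and Tnnc1 is the calcium sensor that slow fibres share with the heart. Tpm3 encodes slow tropomyosin and, through other promoters and splicing, short cytoskeletal tropomyosins made in many cell types. Myoz2 is a Z-disc protein that binds calcineurin, a phosphatase of the slow-fibre programme. Soleus is a mostly slow muscle in the rat. Gastrocnemius is a mixed muscle, mostly fast, with its slow fibres concentrated in the deep part.

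Signals are linear, scaled by the authors, and have no unit, so no gene's level is set against that of another gene. Log2 values are log2(signal + 12.4), and every fold change and SD below is on that scale. In these tissue arrays, fewer slow fibres in a sample and less of a transcript per fibre cannot be told apart. RNA quality was followed by the ratio of the 5' to the 3' actin control probe sets, which ran from 0.116 to 0.707. It was lowest in replicate 3 of unexercised gastrocnemius at 0.1 mg/kg/day (0.116), replicate 1 of exercised soleus at 1.0 mg/kg/day (0.245) and replicate 3 of exercised gastrocnemius at 0.1 mg/kg/day (0.248). Leaving out these 3 arrays changed none of the counts of members called.

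Promoter sequences, from 250 bases before to 50 bases after the start site, were found for 5 of the 7 genes in RefSeq (rat build GRCr8). They are shown because these genes moved together from array to array, as described below. The 3 shown are those in which an element other than the E-box and the NFAT core was found. Capitals mark matches on either strand to MCAT (CATTCC, bound by TEAD factors), the CArG box (bound by serum response factor), TATAAA, and MEF2 (bound by MEF2 factors, activators of slow-fibre genes). Myl3 lies at chr8:119616844-119617143 on the plus strand, Tnnt1 at chr1:78348785-78349084 on the plus strand and Myoz2 at chr2:213852729-213853028 on the minus strand, and each sequence is printed 5′ to 3′ along its gene.
Myl3: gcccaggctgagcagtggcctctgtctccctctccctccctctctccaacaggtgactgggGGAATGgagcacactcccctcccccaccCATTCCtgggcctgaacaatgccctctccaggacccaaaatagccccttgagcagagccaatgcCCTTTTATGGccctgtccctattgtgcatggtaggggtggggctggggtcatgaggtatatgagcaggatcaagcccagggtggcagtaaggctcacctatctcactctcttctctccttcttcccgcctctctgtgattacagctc
Tnnt1: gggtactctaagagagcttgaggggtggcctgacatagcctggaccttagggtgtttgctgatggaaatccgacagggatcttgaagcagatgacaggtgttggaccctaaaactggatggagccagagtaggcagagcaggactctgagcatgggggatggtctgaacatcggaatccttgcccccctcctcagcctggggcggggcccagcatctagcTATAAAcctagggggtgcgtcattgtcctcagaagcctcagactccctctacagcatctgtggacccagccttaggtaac
Myoz2: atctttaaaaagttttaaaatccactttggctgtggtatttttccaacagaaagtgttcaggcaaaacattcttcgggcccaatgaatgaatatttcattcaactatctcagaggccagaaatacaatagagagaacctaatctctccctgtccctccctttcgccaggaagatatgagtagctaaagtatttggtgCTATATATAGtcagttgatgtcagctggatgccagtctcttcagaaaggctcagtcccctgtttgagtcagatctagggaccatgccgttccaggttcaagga
The capitals in Myl3 are 2 MCAT matches, at 189 and 161 bases before the start, and a CArG box at 97 before it. Tnnt1 holds TATAAA at 30 bases before the start, and Myoz2 holds a MEF2 match at 53 before it. Among all 33469 promoters of this length, 14.2% held MCAT, 1.6% the CArG box, 14.2% TATAAA and 3.3% MEF2. MCAT was in 1 of 5 promoters of the members and 1 of 6 of their fast counterparts, MEF2 likewise in 1 of 5 and 1 of 6, TATAAA in 1 of 5 and 2 of 6, and the CArG box in 1 of 5 and 0 of 6. The E-box CANNTG was in all 5 promoters of the members, in all 6 found for their fast counterparts and in 72.1% of all promoters. The NFAT core GGAAA was in 3 of 5, 5 of 6 and 62.7%. No element searched was in all 5 promoters except the E-box. These matches are letters in a window and not measured sites.

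In soleus every member varied little between samples. Tnni1 read 36780, 55466, 54698 and 52336 in exercised soleus at 1.0 mg/kg/day, against 58684, 63765, 57565 and 63983 in exercised vehicle soleus. Without exercise it read 54108, 46627 and 56762 in soleus at 1.0 mg/kg/day, against 62151, 49308, 45203 and 58536 in vehicle soleus. Over all 15 soleus arrays the highest value of a member was between 1.74 times (Tnni1) and 2.21 times (Myoz2) its lowest.

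In gastrocnemius the same probe sets varied widely, also between rats of 1 group. In exercised vehicle gastrocnemius Tnni1 read 3958, 48651, 1488 and 196. It read 41965, 21294, 777 and 4877 at 0.1 mg/kg/day with exercise, 20524, 26398 and 37314 at 0.5 mg/kg/day, and 20624, 318, 13590 and 873 at 1.0 mg/kg/day. The vehicle group and the groups at 0.1 and 1.0 mg/kg/day each held a rat at the level of the 0.5 mg/kg/day group and a rat far below it, and the 3 rats at 0.5 mg/kg/day were all high. Without exercise, Tnni1 read 41129, 28006, 10215 and 10477 in vehicle gastrocnemius and 41257, 6122, 6853 and 44.3 at 0.1 mg/kg/day. It read 7472, 29645, 39395 and 25188 at 0.5 mg/kg/day and 12617, 8062 and 21798 at 1.0 mg/kg/day. Replicates 1 and 4 of the 0.1 mg/kg/day group were the highest and the lowest of all unexercised gastrocnemius arrays.

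Myl2 had the widest range of the members. In unexercised gastrocnemius at 0.1 mg/kg/day it read 48406 in replicate 1 and 23.8 in replicate 4. Over the 30 gastrocnemius arrays its highest value was 2100 times its lowest, compared with 1.91 times over the 15 soleus arrays. The other members spanned 1100 times (Tnni1), 536 (Myoz2), 513 (Tnnc1), 488 (Tpm3), 362 (Tnnt1) and 261 times (Myl3) over the gastrocnemius arrays. Values near the lower end lie close to the array background, where the ratio is poorly determined.

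**Figure D1:**
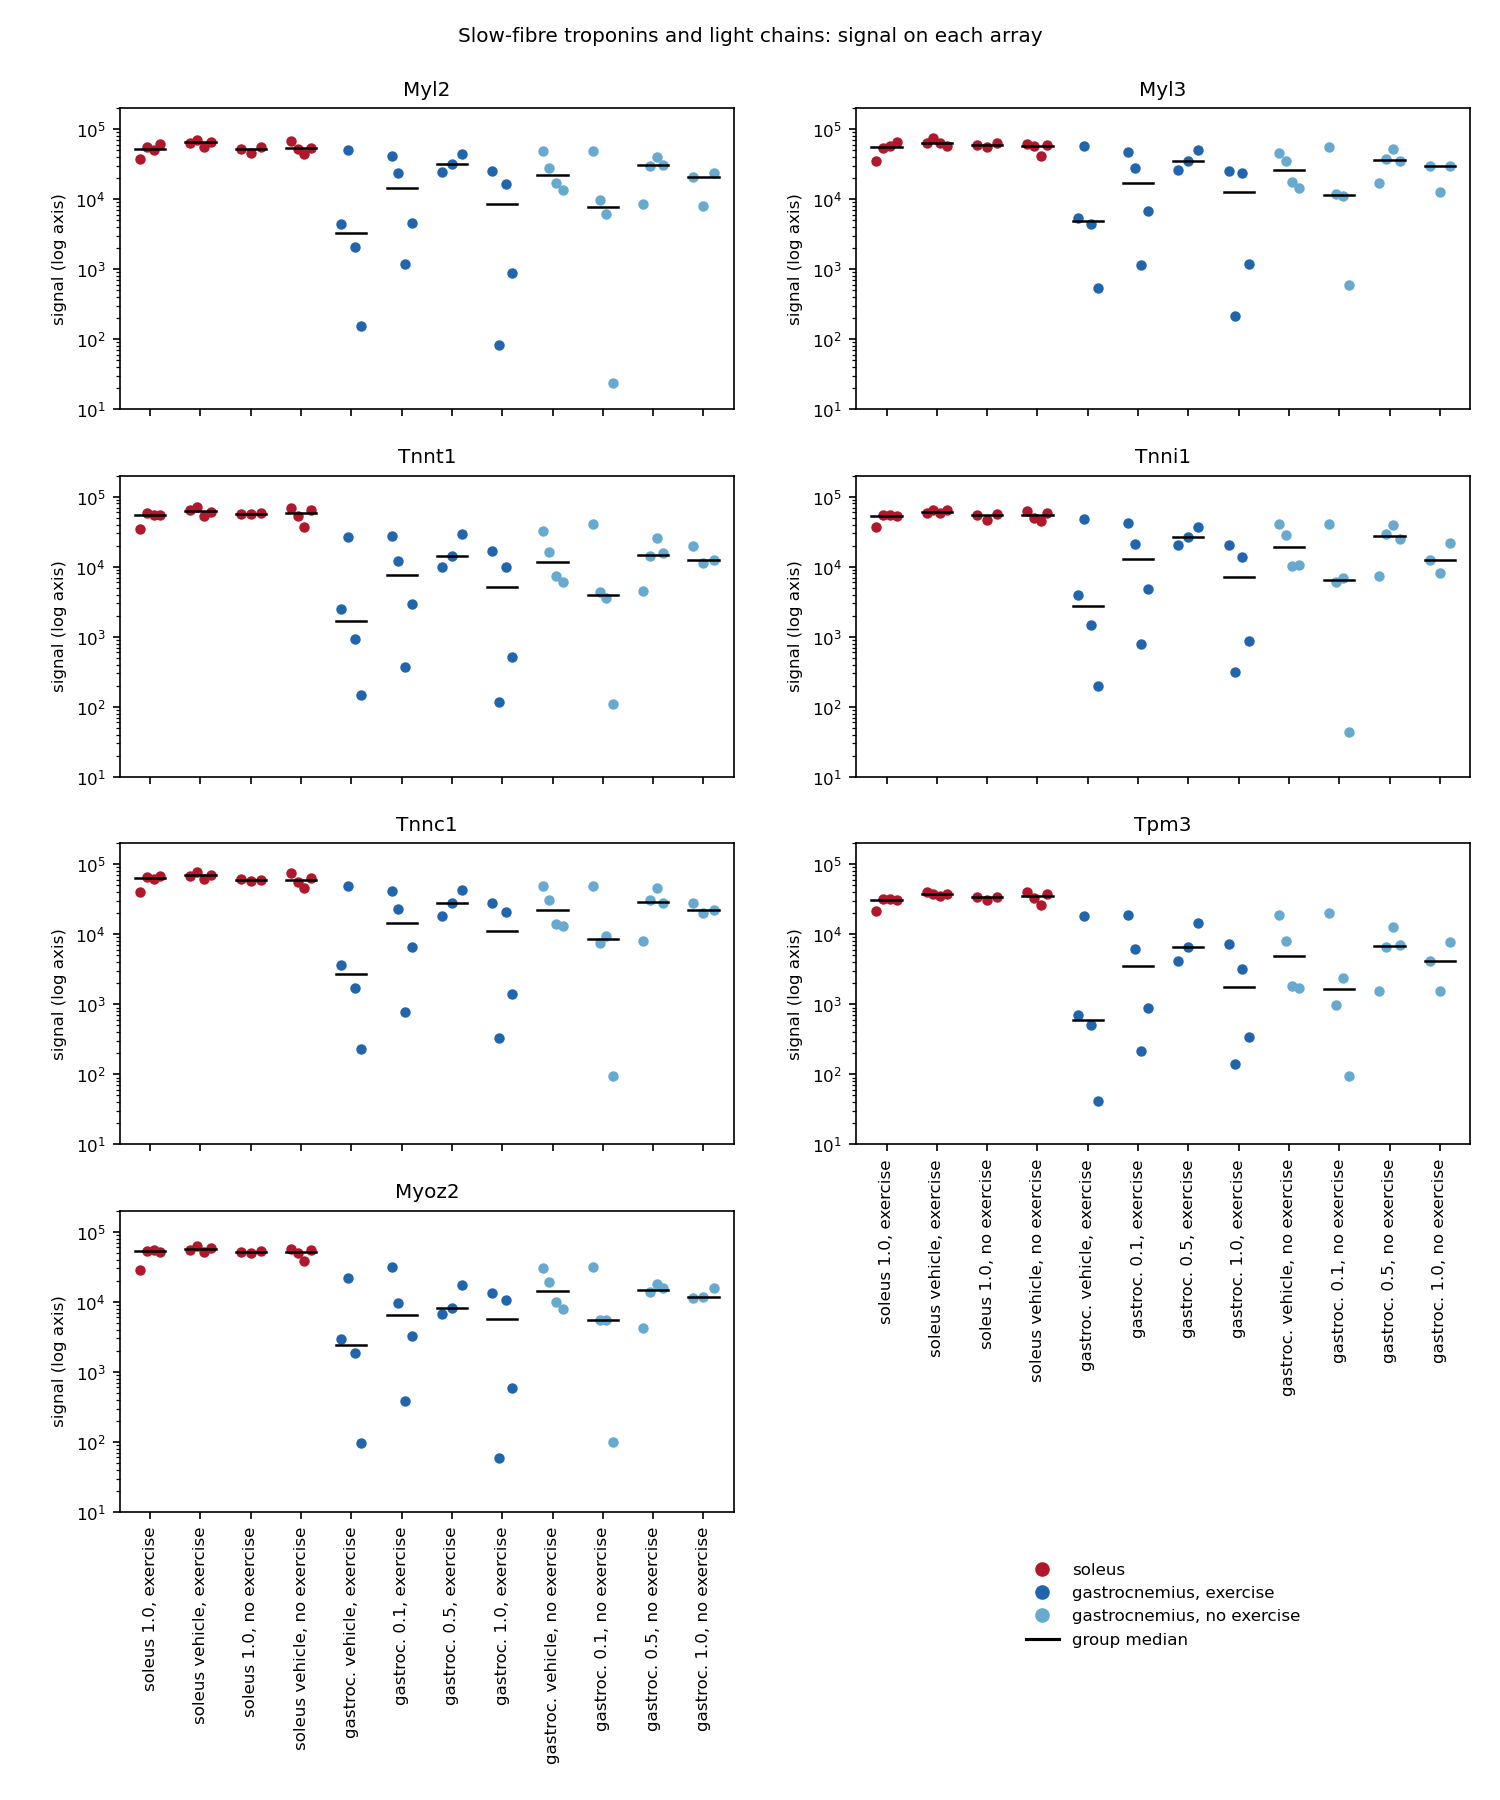
Signal of each member on every array (log axis, no unit), with a point per rat, a black line at the group median, and doses in mg/kg/day. The soleus points stay within a narrow band in all 7 panels. The gastrocnemius points of most groups spread widely (23.8 to 48406 for Myl2 in unexercised rats at 0.1 mg/kg/day), with mostly the same rats low for each gene.

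The members' mean log2 level put 5 of 30 gastrocnemius arrays below 10, with 6.79 to 9.58, while soleus arrays lay between 14.99 and 15.97. Those 5 arrays included exercised vehicle replicate 4 (7.42), exercised replicate 3 at 0.1 mg/kg/day (9.24) and exercised replicates 2 and 4 at 1.0 mg/kg/day (7.37 and 9.58). The other was unexercised replicate 4 at 0.1 mg/kg/day (6.79). Most gastrocnemius arrays came from treated rats. The 5 were spread over 4 of the 8 gastrocnemius groups. At the other end, 4 gastrocnemius arrays lay above the lowest soleus array, with the highest at 15.25. That soleus array was replicate 1 of the exercised group at 1.0 mg/kg/day, with an actin 5' to 3' ratio of 0.245. The next lowest soleus array was also at 15.25. The mean of the fast counterparts on the 5 low arrays was 14.19 to 16.34, with the 2 values under 16 in the high-dose exercised group.

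Within-group SDs set the members apart from nearly all other transcripts. In gastrocnemius their SD was 2.13 (Myl3) to 2.71 (Myl2), against a median of 0.49 over the 21729 probe sets tested, and their ranks by SD were between 2 and 16. Of the 20 probe sets with the widest spread, 8 belonged to the 7 members, including both Tnni1 probe sets. The widest spread of all was that of Myh7, the slow myosin heavy chain, with an SD of 3.0. In soleus the same probe sets had SDs of 0.20 to 0.30, against a median of 0.39. Each member's SD was 8.0 to 12.4 times larger in gastrocnemius than in soleus. Members read up to 76427 in soleus (Tnnc1, exercised vehicle). The part of a signal ceiling in the narrow soleus spread or in the differences between the muscles was not tested.

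The 7 genes were mostly high in the same rats and low in the same rats of a gastrocnemius group. Their order differed where the range was narrow, as in unexercised rats at 1.0 mg/kg/day. There Tnnt1 was highest in replicate 1 (19809) and Myl2 in replicate 3 (23834). After the group mean was taken from each value, Pearson's r between members over the 30 arrays lay between 0.927 and 0.993 over the 21 pairs (median 0.98). Spearman's rho lay between 0.929 and 0.979. Each of the 21 pairs had p = 1e-05 by permutation within groups (2-sided), the smallest that 100000 permutations can give. It was the same after Benjamini-Hochberg adjustment over the pairs. The members were chosen with earlier results of these data known, and the pairs share genes. The covariation is therefore a description, and these p-values are not independent support for it. Without the 2 arrays farthest from the median, r was 0.93 to 0.991. Over the 23 arrays without the high dose the median r was 0.986. In soleus, where the range was narrow, r between members was 0.825 to 0.962 over 15 arrays.

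The second Tnni1 probe set, 1386873_at, followed the mean of the other 6 genes as closely as the first did, with r of 0.989 against 0.99. The second Myl2 probe set, 1388293_at, read 29 to 501.7 over the gastrocnemius arrays and followed them with r of 0.475.

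**Figure D2:**
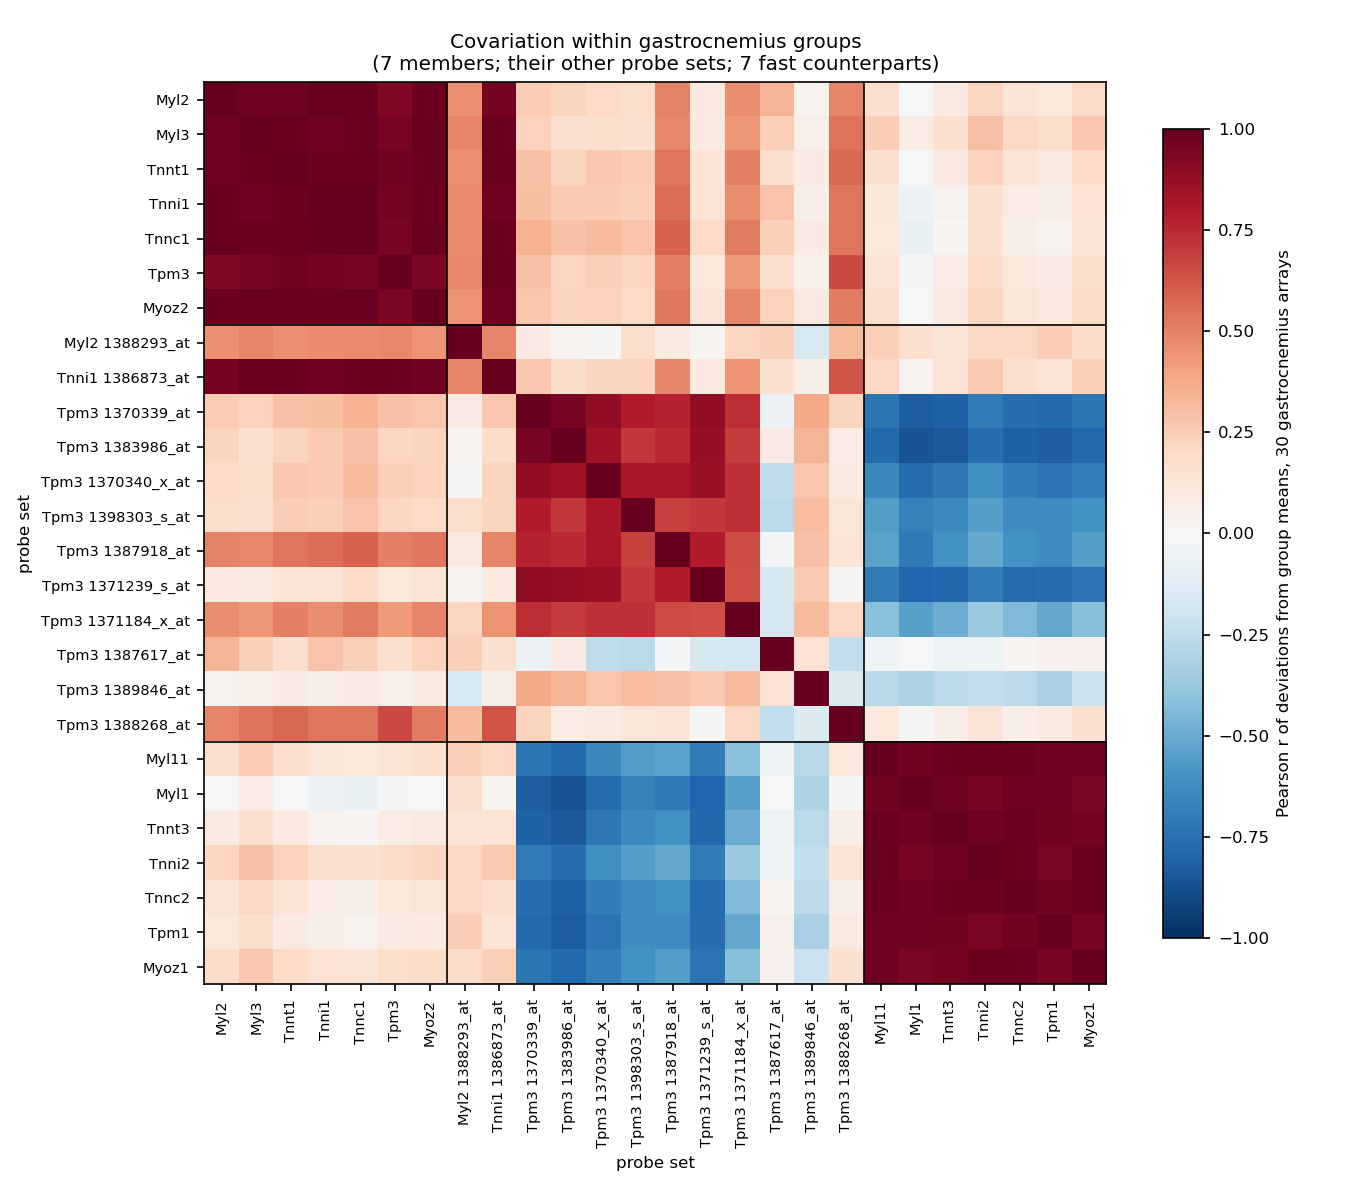
Pearson's r of deviations from group means over the 30 gastrocnemius arrays, for the 7 members, their other 12 tested probe sets and the 7 fast counterparts. Members form 1 block (r of 0.927 or more), fast counterparts form another (0.938 or more), correlations between these blocks lie between -0.075 and 0.295, and 7 Tpm3 probe sets form a block of their own.

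The fast fibre's versions of the same proteins had little correlation with the members. Their r with the member mean was -0.014 (Myl1, the fast essential light chain) to 0.207 (Tnni2, the fast inhibitory troponin), although they correlated among themselves with r of 0.938 to 0.985. These correlations describe 30 arrays and have no test. Over 11677 genes the median r with the member mean was -0.001, with the 5th and 95th percentiles at -0.475 and 0.476.

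The genes most like the members by r with their mean over the 30 arrays were Ldhb (0.977), Myh7 (0.97), Atp2a2 (0.959), Lmod2 (0.951) and Ankrd2 (0.948). Ldhb is the lactate dehydrogenase subunit of heart and oxidative muscle, Atp2a2 the slow-fibre and cardiac calcium pump, and Lmod2 an actin-filament nucleator. Ankrd2 is a stretch-responsive titin-binding protein. Next came Lmcd1 (0.935), Hspb7, a small heat shock protein of heart and muscle (0.932), Fhl1, a muscle LIM-domain protein (0.931), Vtcn1, an immune co-inhibitor (0.905), and Csrp3, the muscle LIM protein of the Z-disc (0.895). Of the genes compared, 9 exceeded 0.9. At the other end stood Utp6 (-0.846), Susd6 (-0.843), Epb41 (-0.784), Bzw1 (-0.782) and Upf3a (-0.776), whose own within-group SDs were 0.16 to 0.32.

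Among the other slow-fibre genes listed, 13 were tested and their r with the member mean ran from -0.082 to 0.97, with a median of 0.788. Casq2, the slow-fibre and cardiac calsequestrin, had 0.889 and Fabp3, a fatty acid carrier, had 0.788. Pln, the inhibitor of the Atp2a2 pump, had 0.203 and Tmod1, which caps thin filaments, had -0.082. Myh2, the myosin of fast oxidative (type IIa) fibres, had 0.885 and was the highest of 13 listed fast-fibre genes, whose median was 0.197. Of 29 fibre-type regulators the highest were Esrrg (0.836), a nuclear receptor of oxidative metabolism, and Prox1 (0.795), a homeobox factor of slow fibres. Rcan2 (0.754) and Rcan1 (0.753) are calcineurin regulators, and Rcan1 is a known calcineurin target. The median of the regulators was 0.255.

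Another 9 measures were set against the member mean over the same 30 arrays, with permutation p-values adjusted over the 9. Red blood cell markers (3 genes) had r = 0.667 (rho = 0.559, permutation p = 0.00508, adjusted p = 0.0437), and 0.516 without the 2 farthest arrays. Tendon and fibroblast markers (8 genes) had r = 0.58 (rho = 0.54, permutation p = 0.00972, adjusted p = 0.0437), and 0.46 without those arrays. For both, rho missed the threshold (adjusted p = 0.0801). The part of either marker list in the spread of the members was not tested. Macrophage markers (12 genes) had r = -0.171 (adjusted p = 0.72) and the actin 5' to 3' ratio had r = -0.005 (adjusted p = 0.983).

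Soleus was set against gastrocnemius in vehicle rats, as a check of the tissue labels and of the size of the slow and fast difference. In exercised rats all 7 members were higher in soleus, by 3.61 ± 1.16 (SE, Myl3) to 5.61 ± 1.31 (Tpm3) on the log2 scale, with limma adjusted p between 0.00353 and 0.0403. In this comparison 13.2% of all probe sets were called and 6.33% were called higher. Tpm3 read 39895, 38180, 35350 and 37452 in exercised vehicle soleus, against 710, 18036, 500 and 41.1 in exercised vehicle gastrocnemius. Tnnt1 read 64133, 71346, 53640 and 60042 in that soleus, against 2477, 26586, 915 and 148 in gastrocnemius. For both genes the groups did not overlap, and gastrocnemius replicate 2 was far above the other 3.

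All 7 members were non-overlapping in this comparison, against 11.4% of probe sets with every soleus array higher. Because the members moved together from array to array, these are not 7 independent results. The number called was 3 without gastrocnemius replicate 3, 1 without gastrocnemius replicate 4 and 4 without soleus replicate 4. It was 5 to 7 without any other single array. Of the fast counterparts 6 of 7 were lower in exercised soleus, against 6.83% of all probe sets. The fit pools the spread of both muscles, although the members' spread was many times smaller in soleus.

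In unexercised vehicle rats the members were not called different between the muscles. The estimates were 1.10 (Myl3) to 2.85 (Tpm3), with SEs of 1.16 to 1.47 and adjusted p of 0.189 or more, in a comparison that called 7.02% of probe sets. Tnnt1 read 68950, 52665, 36879 and 65440 in soleus, against 32028, 16042, 7360 and 6114 in gastrocnemius. Myl2 read 68569, 52477, 43900 and 54051 in soleus, against 48059, 27481, 16890 and 13537 in gastrocnemius. Tnnt1, Tnni1, Tpm3 and Myoz2 did not overlap between the muscles (7.75% of probe sets had every soleus array higher), while Myl2, Myl3 and Tnnc1 did. Fitting only these 2 groups called 4 members.

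Of the 7 fast counterparts, 5 were lower in unexercised soleus: Myoz1, a fast-fibre relative of Myoz2 (-2.08 ± 0.48), Tnnt3 (-1.43 ± 0.37), Tnni2 (-1.40 ± 0.41), Tpm1, the tropomyosin of fast fibres and heart (-1.20 ± 0.32) and Myl11, the fast regulatory light chain (-1.03 ± 0.28). Their adjusted p lay between 0.00688 and 0.03, and 3.76% of all probe sets were called lower. Of 13 other slow-fibre genes, Casq2 was higher in soleus (2.91 ± 0.61, adjusted p = 0.00303) and Tmod1 lower (-1.79, adjusted p = 0.0133), and 11 were not called. Myh7 differed by 0.61 ± 1.63 (adjusted p = 0.861). Among regulators, Rcan1 (2.91) and Prox1 (2.09) were higher, and Sox6, a repressor of slow-fibre genes (-2.64), and Myod1, a myogenic factor prominent in fast fibres (-2.62), were lower. Of 29 regulators, 3 were higher and 6 lower, where 3.26% of all probe sets were called higher and 3.76% lower. Of 13 other fast-fibre genes, 5 were lower and 0 higher, among them Pvalb, the calcium buffer of fast fibres (-5.26, adjusted p = 0.0202), and Myh4, the type IIb myosin (-5.07, adjusted p = 0.0344).

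**Figure D3:**
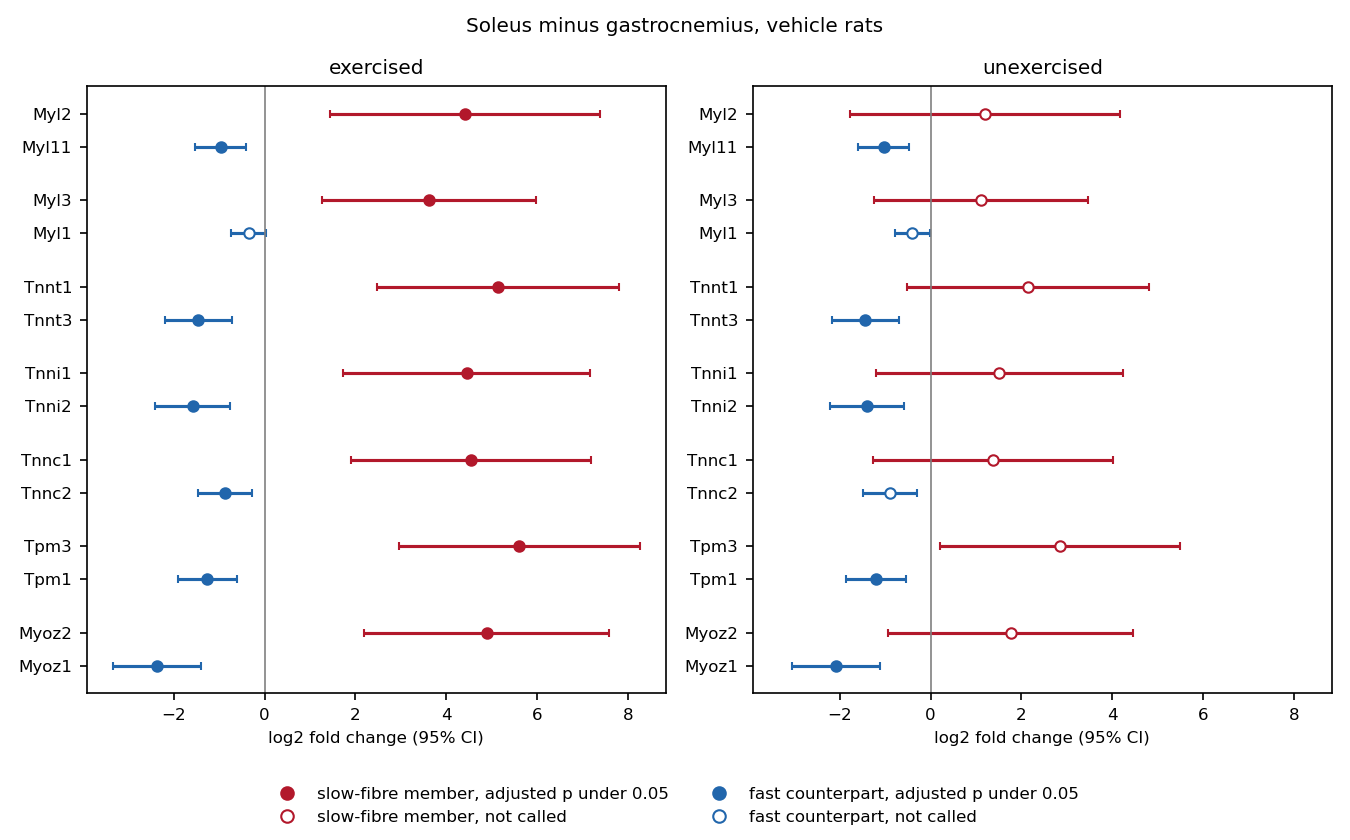
Soleus minus gastrocnemius log2 fold changes in vehicle rats (4 against 4 in each panel), with 95% confidence intervals from limma, for each member and its fast counterpart. All 7 members are filled (called) in exercised rats and none in unexercised rats, and the intervals of the members are wider than those of the fast counterparts.

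At the high dose with exercise, the members did not pass the test while all their fast counterparts fell. Of the 7 members 0 were called, with estimates from -0.54 ± 1.38 (Myl3) to 0.47 ± 1.55 (Tnnc1) and adjusted p of 0.78 or more, where 43.4% of all probe sets were called. By unadjusted p the smallest member value was 0.698. All 7 fast counterparts were lower, by -1.10 ± 0.21 (Myl1) to -2.33 ± 0.45 (Myoz1), with adjusted p of 0.000324 or less. The share of all probe sets called lower was 20.4%.

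The members' values in this group lay far apart. Myl2 read 25623, 82.9, 16335 and 876 in exercised gastrocnemius at 1.0 mg/kg/day, against 4476, 49989, 2104 and 156 in exercised vehicle gastrocnemius. Tnnc1 read 27562, 326, 21050 and 1382, against 3658, 48633, 1721 and 230 in vehicle. In both genes treated replicates 1 and 3 were high and 2 and 4 low, and each group overlapped the other. Myoz2 read 13261, 58.6, 10609 and 592 in the same treated rats, against 2934, 22257, 1882 and 97.5 in vehicle. All 4 treated rats carried macrophage marker levels of 11.99 to 13.37 (mean log2 of 12 genes), against 8.42 to 8.69 in vehicle. Among the treated rats the level was 11.99 and 12.72 in replicates 1 and 3, which were high in slow-fibre transcripts, and 13.03 and 13.37 in replicates 2 and 4, which were low. In exercised vehicle replicates 1 to 4 the members' mean log2 level was 11.52, 15.12, 10.61 and 7.42. Their macrophage levels were 8.69, 8.42, 8.62 and 8.46. The part of macrophage RNA in these member values was not tested.

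The data bound the drug's effect on the members loosely. The 95% interval for Myl2 was -3.88 to 3.29 and that for Myl3 was -3.37 to 2.29, so falls as large as those of the fast counterparts lie inside them. The difference between each slow member's change and its fast counterpart's was therefore tested itself. It was positive for all 7 pairs, from 0.56 (Myl3 and Myl1) to 2.04 (Myoz2 and Myoz1). The pairs come from the same arrays, and members and fast counterparts each moved together. The 7 signs are therefore not 7 independent results. None passed a 2-sided exact permutation test (p = 0.371 to 0.914, lowest adjusted p = 0.76, where 0.0286 is the smallest p that 4 against 4 arrays allow).

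Other sarcomere and slow-fibre genes fell in part in the exercised high-dose group, where 23.0% of all probe sets were called higher and 20.4% lower. Of 13 other slow-fibre genes, 5 fell and 0 rose, among them Mybpc1, slow myosin-binding protein C (-2.72, adjusted p = 0.000427), Tmod1 (-2.58), Car3, a carbonic anhydrase (-2.40), and Mb, myoglobin (-1.97). Myh7 changed by -0.25 ± 1.94 and Atp2a2 by 0.37 ± 1.02, neither called (adjusted p = 0.931 and 0.798). Of 12 sarcomere genes shared by both fibre types, 11 fell, led by the Z-disc protein Ldb3 (-4.50). Of 29 regulators, 19 fell and 0 rose, led by Sox6 (-3.04), Vgll2 (-2.40), Mef2c (-2.38) and Eya1 (-2.26). Of 13 other fast-fibre genes, 11 fell, including Pvalb (-4.33) and the fast light chain kinase Mylk2 (-4.31). Of the markers of other cell types, 1 of 4 Schwann cell genes and 2 of 8 tendon and fibroblast genes rose, 1 of 5 smooth muscle genes fell, and 0 of 5 adipocyte, 0 of 4 endothelial and 0 of 3 red blood cell genes were called. The counts of Schwann cell, tendon and fibroblast, and smooth muscle genes were near the shares of all probe sets. All 12 macrophage markers rose, by 3.27 or more, with Aif1 at 5.22, and the part of added macrophage RNA in the falls was not tested.

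Without exercise the high dose again moved no member past the test. Of the 7 members 0 were called (-0.57 to 0.20, SEs of 1.49 to 1.89, adjusted p of 0.877 or more), in a comparison that called 9.50% of probe sets. Tnni1 read 12617, 8062 and 21798 at 1.0 mg/kg/day, against 41129, 28006, 10215 and 10477 in vehicle. Of the fast counterparts, 1 of 7 was called lower, Tpm1 (-0.83 ± 0.26, adjusted p = 0.0419), against 3.81% of all probe sets. Tpm1 has 6 tested probe sets, and only that of highest mean is reported here. The estimates of all 7 lay between -1.30 and -0.59, with adjusted p of up to 0.152. Of all probe sets 2065 were called here, against 5 without treated replicate 1, 2 without treated replicate 2 and 5823 without treated replicate 3. Of 13 other fast-fibre genes 6 fell and 0 rose, led by Pvalb (-4.56, adjusted p = 0.0118), Mylk2 (-2.78), Myh4 (-2.17) and Actn3, the fast-fibre alpha-actinin (-2.04). Of 29 regulators 3 fell and 0 rose, namely Sox6 (-1.84) and the calcineurin-responsive factors Nfatc1 (-1.09) and Nfatc3 (-0.77). Of 13 other slow-fibre genes, 12 shared sarcomere genes and 6 developmental and cardiac genes, 0 were called. Of 5 smooth muscle genes, Smtn fell (-1.14). All 12 macrophage markers rose, led by Cd68 (3.37), Cd14 (3.17), Tyrobp (3.09) and Cd163 (3.04), where 5.70% of all probe sets were called higher. The part of macrophage RNA in the falls was not tested. Replicate 3 of the treated rats had a macrophage level of 9.11, against 12.36 and 12.54 in the other two treated rats and 8.14 to 9.56 in vehicle.

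**Figure D4:**
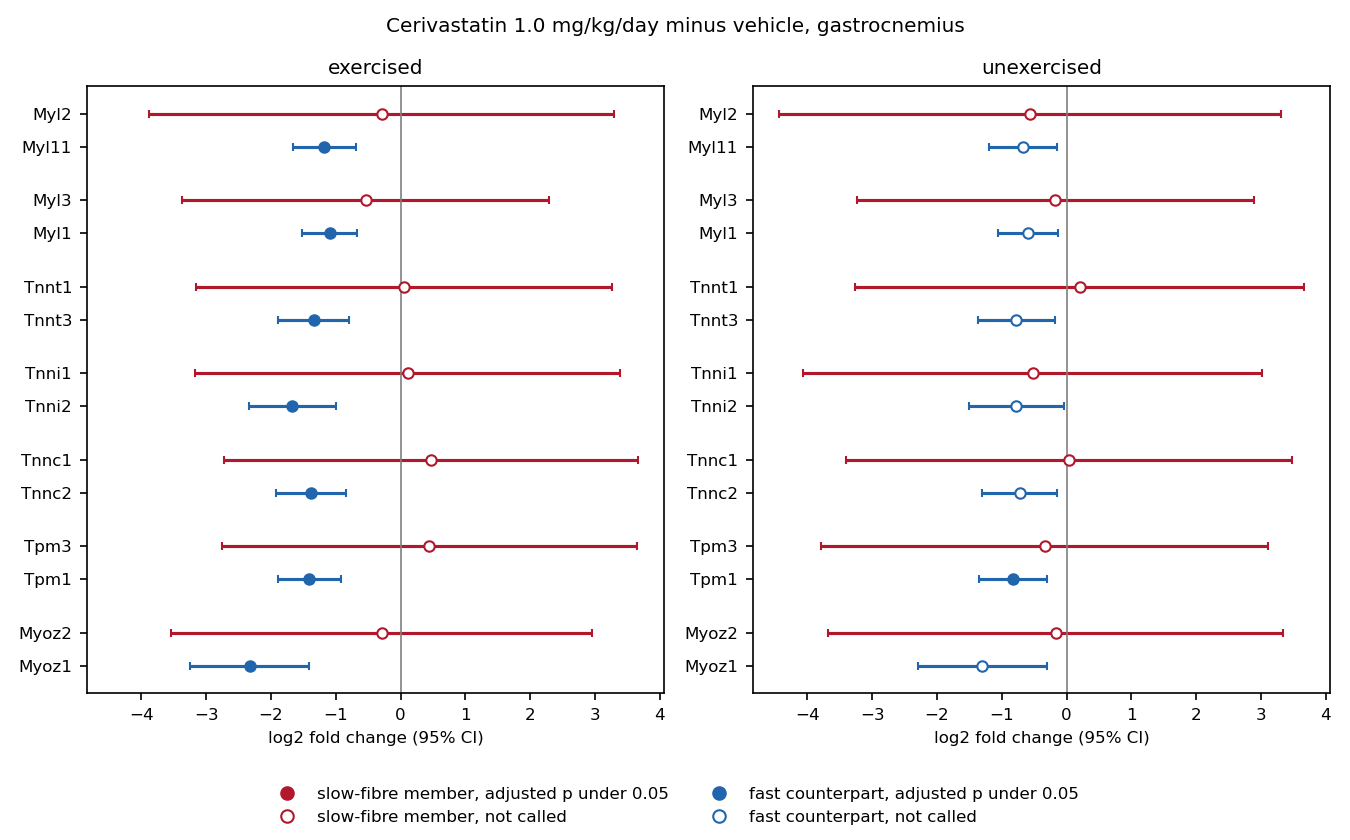
Log2 fold changes of cerivastatin 1.0 mg/kg/day over vehicle in gastrocnemius, with 95% confidence intervals from limma, for each member and its fast counterpart (4 against 4 exercised rats, 3 against 4 unexercised). The members' estimates lie between -0.57 and 0.47 with intervals that reach beyond 2 in both directions, and the fast counterparts lie below 0 with narrow intervals.

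Tpm3 differed from the other members in that its probe sets did not agree. The probe set 1376929_at followed the slow-fibre genes (r = 0.955 with the mean of the other 6). Another 7 (1370339_at, 1383986_at, 1370340_x_at, 1398303_s_at, 1387918_at, 1371239_s_at and 1371184_x_at) correlated among themselves with r of 0.648 to 0.95, with the 7 members at 0.093 to 0.586, and with the fast counterparts at -0.86 to -0.372. Suffixes _s_at and _x_at mark probe sets that may match several transcripts, which concerns 4 of the 7. By the platform annotation 1370340_x_at, 1398303_s_at and 1387918_at come from the same source sequence, and 1371239_s_at and 1388268_at share another. Counts of Tpm3 probe sets below are therefore not counts of independent measurements. These 7 were grouped after their values were seen. Which Tpm3 transcript a probe set reads was not determined here.

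In exercised gastrocnemius all these 7 rose at the high dose. Probe set 1370339_at read 9298, 15328, 9940 and 15085 at 1.0 mg/kg/day, against 942, 2100, 1264 and 1052 in vehicle, a log2 change of 3.23 ± 0.48 (adjusted p = 2.07e-05). Probe set 1383986_at read 6811, 13654, 7223 and 12692, against 535, 825, 841 and 437 in vehicle, a change of 3.89 ± 0.54 (adjusted p = 1.35e-05). The groups lay well apart for both, while 1376929_at read 7155, 140, 3149 and 343 in the treated rats, against 710, 18036, 500 and 41.1 in vehicle, with a change of 0.45 ± 1.56. Of 10 tested Tpm3 probe sets other than 1376929_at, 8 were called higher, with the largest change in 1398303_s_at (5.48 ± 0.67) and the smallest in 1389846_at (0.66 ± 0.25). The share of all probe sets called higher was 23.0%. Every treated array was above every vehicle array for 7 of the 11 tested Tpm3 probe sets, as for 22.2% of all probe sets.

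Without exercise 7 of the 10 were called higher, against 5.70% of all probe sets, and 4 of 11 had every treated array higher, against 7.48%. Probe set 1370339_at read 10169, 9891 and 2077 at 1.0 mg/kg/day, against 1760, 1605, 1423 and 2342 in vehicle, a change of 1.75 ± 0.52 (adjusted p = 0.0352). Replicate 3, the treated rat with vehicle-like macrophage markers, lay inside the vehicle range. The count was 0 without treated replicate 1 and 0 without treated replicate 2. It was 8 without treated replicate 3, and 2, 3, 2 and 6 without vehicle replicates 1 to 4. It was 0 when only these 2 groups were fitted and 4 with the replicate number as a block. The exercised and unexercised changes were not called different for any Tpm3 probe set (for 1370339_at 1.48 ± 0.70, adjusted p = 0.705), and the smallest unadjusted p was 0.0096, for 1398303_s_at. That comparison called 0 of 7 members and 0.0% of all probe sets, with 1375 probe sets at unadjusted p under 0.05.

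Of the 7 grouped Tpm3 probe sets, 4 correlated with macrophage markers among rats of the same group. Over the 30 gastrocnemius arrays, deviations of 1383986_at correlated with those of the macrophage mean with r = 0.791 and rho = 0.671 (permutation p = 0.00504, adjusted p = 0.0359 over 11 Tpm3 probe sets), and r was 0.62 without the 2 farthest arrays. For 1370339_at r was 0.766 and rho 0.63 (permutation p = 0.00652, adjusted p = 0.0359), and 0.571 without those arrays. Over the 23 arrays without the high dose r was 0.69 for 1383986_at, 0.637 for 1370339_at, 0.591 for 1371239_s_at and 0.437 for 1370340_x_at. It was 0.311 for 1398303_s_at, 0.293 for 1371184_x_at and 0.227 for 1387918_at. The permutation test also passed for 1371239_s_at (r = 0.801, adjusted p = 0.0466) and 1370340_x_at (r = 0.74, adjusted p = 0.0481). It did not pass for 1398303_s_at (r = 0.565, adjusted p = 0.0616), 1387918_at (r = 0.508, adjusted p = 0.104) or 1371184_x_at (r = 0.515, adjusted p = 0.149), where r was 0.204 to 0.337 without the 2 farthest arrays. For 1376929_at r was -0.245 (adjusted p = 0.198). In unexercised gastrocnemius at 0.1 mg/kg/day, replicate 3 read 7405 for 1370339_at, against 2301, 1273 and 1012 in the other rats. Its macrophage level was 10.75, its actin 5' to 3' ratio was the lowest, and it is among the 23 arrays above. The part of macrophage RNA in the Tpm3 rise was not tested.

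**Figure D5:**
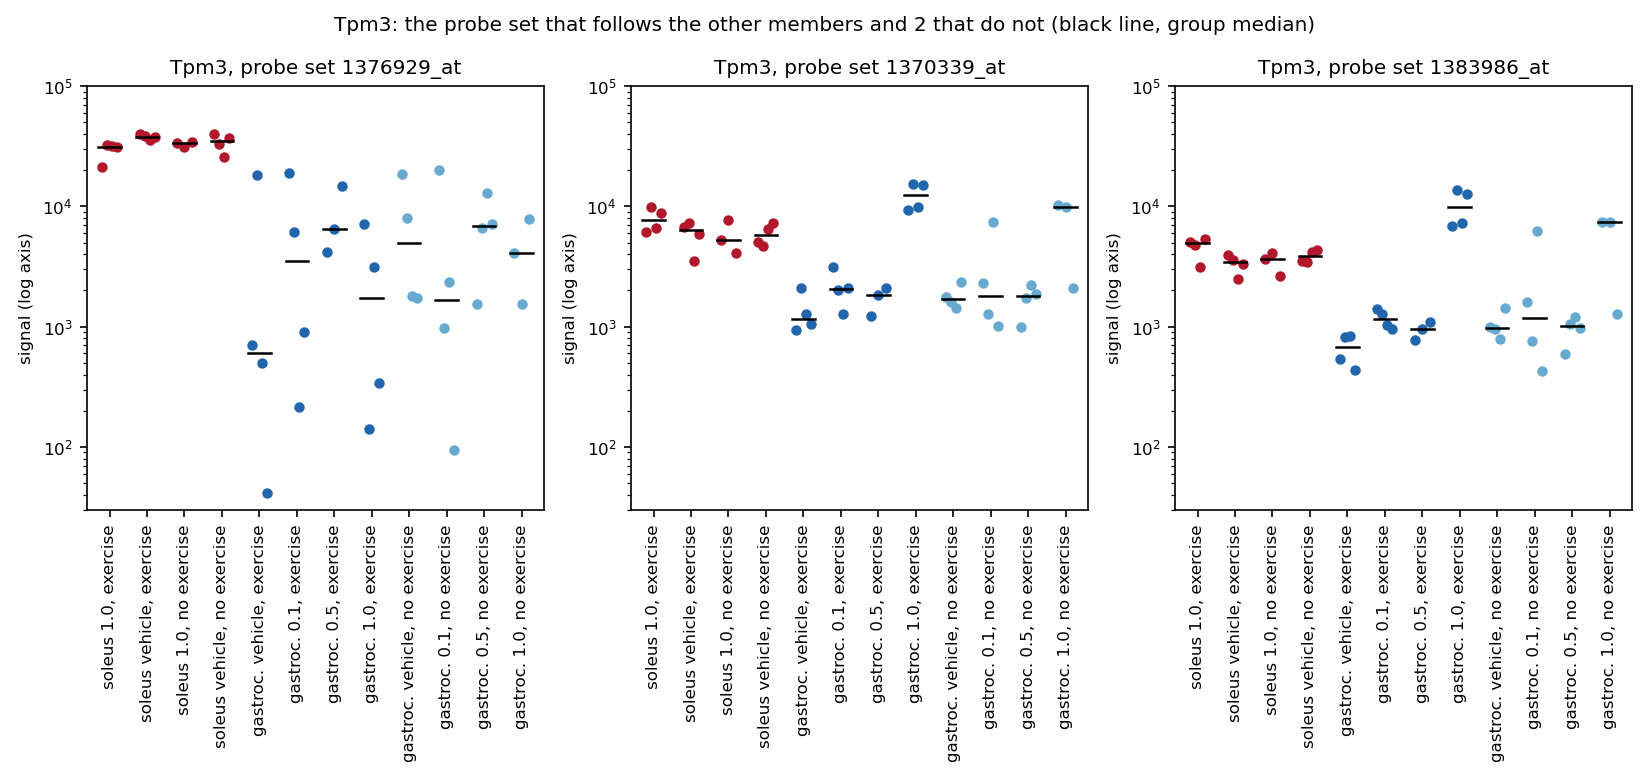
Signal of 3 Tpm3 probe sets on every array (log axis, no unit), with soleus in red, exercised gastrocnemius in dark blue, unexercised gastrocnemius in light blue and a black line at each group median. The first spreads widely in most gastrocnemius groups. The other 2 are tight in vehicle gastrocnemius and higher in exercised rats at 1.0 mg/kg/day (9298 to 15328 for 1370339_at). Without exercise, replicate 3 at that dose lies inside the vehicle range for both. Unexercised replicate 3 at 0.1 mg/kg/day is also high (7405 for 1370339_at).

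In soleus the high dose moved none of these Tpm3 signals past the test, in comparisons that called 0.0% of all probe sets. Probe set 1370339_at read 6152, 9825, 6624 and 8741 in exercised soleus at 1.0 mg/kg/day, against 6778, 7273, 3485 and 5923 in vehicle, a change of 0.45 ± 0.25 (adjusted p = 0.908). Soleus change minus gastrocnemius change in exercised rats was -2.79 ± 0.61 for this probe set (adjusted p = 0.00138). Of the 10 probe sets, 7 were called in this comparison, each with a smaller change in soleus, where 25.3% of all probe sets were called and 13.7% were called in that direction. For the 7 members' representing probe sets 0 were called, with adjusted p of 0.783 or more. In unexercised rats 0 of the members and 0 of the 10 Tpm3 probe sets were called in this comparison, which called 0.0092% of all probe sets (0.0046% in each direction). That Tpm3 count was 7 without replicate 3 of the unexercised high-dose gastrocnemius and 5 without the 3 arrays of lowest actin ratio.

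In vehicle rats 7 of the 10 Tpm3 probe sets were higher in soleus, with and without exercise. The share of all probe sets called higher was 3.26% without exercise and 6.33% with it. In unexercised rats 1370339_at differed by 1.72 ± 0.43 (adjusted p = 0.012) and 1371184_x_at, the largest, by 2.91 ± 0.69 (adjusted p = 0.00893). In exercised rats the changes of the 7 were 1.80 to 3.77, with adjusted p of 0.0361 or less. Without exercise, the count of 7 was 4 without gastrocnemius replicate 4 and 4 without soleus replicate 3.

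The lower doses gave no calls. At 0.5 mg/kg/day the members' median change was 3.25 in exercised rats and 0.05 in unexercised rats, and at 0.1 mg/kg/day it was 1.46 and -2.18. Limma called 0 of 7 members and 0.0% of all probe sets in each of these 4 comparisons. At unadjusted p under 0.05 stood 626 and 593 probe sets at 0.5 mg/kg/day and 957 and 885 at 0.1 mg/kg/day, with and without exercise, and 0 of the members, whose smallest p was 0.0636. In exercised gastrocnemius Myl3 read 5342, 56865, 4488 and 534 in vehicle, 47614, 27650, 1152 and 6678 at 0.1 mg/kg/day, and 25706, 35208 and 50334 at 0.5 mg/kg/day. The 3 rats at 0.5 mg/kg/day were all high, but vehicle replicate 2 was higher than any of them. For 6 of the 7 members exercised gastrocnemius at 0.5 mg/kg/day had the highest mean of the gastrocnemius groups. The lowest was exercised vehicle for Tnnt1, Tnni1, Tnnc1 and Tpm3, and exercised 1.0 mg/kg/day for Myl2, Myl3 and Myoz2. No adjacent groups in that order were called different where a comparison was made, and each of the 4 soleus groups had a higher mean than every gastrocnemius group for all 7 members.

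Exercise in vehicle rats moved no member past the test in either muscle. In gastrocnemius the median change was -2.80, with 0 of 7 called by limma, 0.0% of all probe sets, and 724 probe sets at unadjusted p under 0.05 (0 of them members). Myl3 read 5342, 56865, 4488 and 534 in exercised vehicle gastrocnemius, against 44911, 34608, 17596 and 14386 in unexercised vehicle gastrocnemius. Of the exercised rats, 3 were below and 1 above all the unexercised ones. In soleus the median change was 0.21, again with 0 of 7 called by limma, 0.0% of all probe sets, and 645 at unadjusted p under 0.05 (0 of them members).

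The high dose in soleus gave 0 of 7 members called, with or without exercise, and 0.0% of all probe sets, while 1156 and 593 probe sets were at unadjusted p under 0.05. In exercised soleus the estimates were -0.27 (Tnnc1) to -0.40 (Tpm3), with SEs of 0.16 to 0.21 and limma adjusted p of 0.908 or more. The 95% interval for Tpm3 was -0.74 to -0.05 and its unadjusted p 0.0271. For Tnni1 and Tpm3 every treated array was below every vehicle array, against 1.67% of probe sets. The lowest of the treated rats, replicate 1, had an actin 5' to 3' ratio of 0.245 and a macrophage level of 10.75, the highest of any soleus array. In unexercised soleus the estimates were -0.09 (Myl2) to 0.13 (Myl3), with SEs of 0.17 to 0.23, so the interval for Myl2 was -0.50 to 0.31.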

How the data were processed

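Each array of the deposited table has 1 linear intensity for every probe set. The submitters' processing notes name MAS5 as the authors' tool, and its version and settings were not given in the sources used here. The file held 31099 probe sets on 45 arrays, and 57 control probe sets were left out. Probe sets were named through GEO's platform annotation, with symbols updated through RefSeq, so that the gene listed as Mylpf is Myl11. Of the others, 20826 had 1 symbol, 436 several and 9780 none. Array data have no read depth, and the number of arrays limits the precision.

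An offset of 12.4, the 10th percentile of all values, was added before log2 was taken. Those 21729 probe sets were tested whose mean reached 6.03, the 30th percentile. Group means were fitted with limma 3.58.1 in R 4.3.3 (lmFit, contrasts.fit, eBayes with a mean-dependent prior). Comparisons within a muscle used its 30 or 15 arrays and those between muscles all 45. Each of the 15 comparisons was adjusted by Benjamini-Hochberg on its own, a probe set was called at an adjusted p under 0.05, and ± after a fold change is the SE. Deviations from group means were correlated with 100000 permutations within groups.

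The members and the gene lists were chosen with earlier results of these data known. All members are named, with up to 4 called genes of largest change from each other list in both high-dose gastrocnemius comparisons and in unexercised soleus against gastrocnemius, and the 10 genes most and 5 least like the member mean. Other genes named, among them Myh2, Esrrg, Rcan2, Pln and Fabp3, were chosen after their values were seen. Alternatives covered the offset, filter, normalization, probe set, arrays fitted and each array left out. A fit without the 3 arrays of lowest actin ratio, and the counts of Tpm3 probe sets, were added after seeing the data. Soleus samples whose title names no exercise were taken as unexercised.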

Additional observations from a re-analysis of the deposited data

Results flagged for a closer look

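Replicate 1 of exercised soleus at 1.0 mg/kg/day lay far below the other 3 rats of its group for 4 members, by Dixon's test on log2 values at the 95% level. It read 34112.4 for Tnnt1 (others 54922.1 to 58858.9), 36779.5 for Tnni1 (52336.2 to 55465.6), 21377.2 for Tpm3 (30842.5 to 32160.8) and 28468.9 for Myoz2 (51950.9 to 54525.0). These were 4 of 72 tests, over 8 probe sets in the 9 groups of 4 arrays, where chance gives about 1 in 20, and they share 1 array. That array's actin 5' to 3' ratio was 0.245.

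The change of the Tpm3 probe set 1370339_at at the high dose with exercise differed between the muscles, with soleus minus gastrocnemius at -2.79 (limma interaction, adjusted p = 0.00138).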

How the results depend on the processing

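Of 1294 values recomputed under alternatives, 1166 kept their direction and side of the threshold or their size, and 70 changed sign. Averaging a gene's probe sets called 1 member in each of the high dose comparisons of gastrocnemius, in the muscle by high dose comparison with exercise and in unexercised soleus against gastrocnemius, and lowered the median covariation to 0.954. It turned the Tpm3 change in unexercised rats to 1.52 (adjusted p = 0.0425), the median in unexercised soleus at the high dose to 0.06 and the median of the exercise by high dose comparison to -0.12. Median centring gave -0.05 for Tnnt1 and for the member median in exercised rats at the high dose, -0.05 for Tnnc1 without exercise and -0.03 for the median of unexercised rats at the middle dose. Quantile normalization gave 0.10 for Myl3, 0.05 for Myoz2 and 0.05 for the median in unexercised rats at the high dose. Fitting only the groups compared called 4 members in unexercised soleus against gastrocnemius and 0 other Tpm3 probe sets in unexercised rats at the high dose. Leaving out the 3 arrays of lowest actin ratio, chosen after seeing the data, called 5 Tpm3 probe sets in the muscle by high dose comparison without exercise. The cause of these shifts was not tested.

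Leaving out 1 array at a time moved the exercised high-dose changes between -1.68 and 1.27 (Myl2), -1.63 and 0.78 (Myl3), -1.10 and 1.35 (Tnnt1), -1.14 and 1.49 (Tnni1), -0.73 and 1.82 (Tnnc1), -0.84 and 1.96 (Tpm3) and -1.67 and 1.19 (Myoz2), with the median between -1.14 and 1.35. Without exercise it moved them between -0.44 and 0.25 (Myl3), -0.14 and 0.66 (Tnnt1), -0.23 and 0.40 (Tnnc1), -0.88 and 0.32 (Tpm3) and -0.47 and 0.18 (Myoz2 and the median). Other medians ranged from -0.23 to 0.57 (middle dose, unexercised), -0.12 to 0.10 (high dose, unexercised soleus), -1.11 to 1.63 (exercise by high dose), -1.67 to 0.83 (muscle by high dose, exercised) and -0.12 to 0.57 (muscle by high dose, unexercised). Members called in exercised soleus against gastrocnemius ranged from 1 to 7. Other Tpm3 probe sets called ranged from 0 to 8 at the high dose without exercise, 4 to 6 in unexercised soleus against gastrocnemius and 0 to 7 in the muscle by high dose comparison without exercise. All calls at the high dose without exercise fell to 5 or 2 of the 2065 without treated replicate 1 or 2, and were 5823 without treated replicate 3, 733 to 823 without vehicle replicate 1, 2 or 3, 0 with only the groups compared, 1348 with a gene's probe sets averaged, 3350 with all 45 arrays fitted and 4054 without the 3 arrays of lowest actin ratio.

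Replicate numbers were not taken to pair the samples. Same-numbered arrays of 66 pairs of groups had correlations of deviations between -0.417 and 0.67 (mean 0.006, against -0.002 for other numbers), and every correlation was above 0.1 in 1 of the 66 pairs, unexercised gastrocnemius at 0.1 mg/kg/day with unexercised vehicle soleus (0.151 to 0.67). With the replicate block the members called stayed at 0 at the high dose and at 7 in exercised soleus against gastrocnemius, the other Tpm3 probe sets called at the high dose without exercise were 4, and the covariation median was 0.976. The block gave -0.42 for Tnnt1 and -0.60 for Tnnc1 at the high dose without exercise, and 0.04 for the median of unexercised soleus. The spread between rats, and groups of 3 or 4, limit what could be detected for the members in gastrocnemius.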
